A study of Mus musculus with 23 samples.

Results

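Signals of 36 lysosome and autophagy genes were examined in 23 murine pancreatic ductal adenocarcinoma (PDAC) cell lines, with 1 array per line. The genes were taken from a list of symbols. A probe set counted for a gene where the platform annotation gives that symbol alone. Where several did, the brightest on average over the lines stood for the gene. All 36 listed genes had such a probe set, 87 probe sets in all, out of 18193 genes that could be matched in this way. The set held 9 cathepsins, 9 other hydrolases and their activators, 5 proteins of the lysosomal membrane and of lipid export, 3 transcription factors of the MiT/TFE family, 3 subunits of the vacuolar proton pump (V-ATPase), 3 autophagy receptors or ATG8 proteins and 4 genes of autophagy initiation and conjugation.

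The lysosome is the acidic compartment in which cathepsins, glycosidases and lipases break down material from endocytosis and autophagy. Many of its genes are driven together by the basic helix-loop-helix factors TFEB, TFE3 and MITF, which bind an E-box with flanking bases known as the CLEAR element. The kinase complex mTORC1, recruited to the lysosome by the Rag GTPases and the Ragulator complex, phosphorylates these factors and holds them in the cytoplasm, so the programme is restrained while mTOR is active. In PDAC, MiT/TFE factors and high autophagy are known to supply amino acids from degraded protein. RNA signals report the amount of a transcript and do not show where a factor lies in the cell or how acidic a lysosome is.

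The study asked which transcripts go with sensitivity to Bez235, a dual inhibitor of PI3K and mTOR, and also measured sensitivity to Rad001, an inhibitor of mTOR. The lines were untreated low-passage cultures. Of the 23 lines, 11 were lines of metastases (prefixes ASC, B, HEP, HEP2, LN1, PUL and PUL3) and 12 were primary tumour lines (prefix PPT). By the numbers in their names they came from 15 mice, and 5 mice gave several lines, 13 in all. Each line is 1 culture and 1 array, so the spread between lines holds both the tumour and the array. Alleles were listed for 13 lines, with Cre expressed in the pancreas from Ptf1aCre/+ (10 lines) or Pdx1-Cre (3 lines). Of these, 6 lines also carried LSL-p53 R172H, namely 2 of 3 listed metastasis lines and 4 of 10 listed primary tumour lines. The reporter alleles LSL-PCNAATG-fLuc, LSL-PCNAIRES-fLuc and LSL-R26Tva-lacZ were listed for 2, 2 and 5 lines. For the other 10 lines no alleles were given in the table used here.

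Each line was given an EMT score, for epithelial to mesenchymal transition. The score was the mean log2 signal of 9 mesenchymal markers minus that of 10 epithelial markers, and none of the 36 genes is in it. The scores fell into 2 clusters with the widest gap between 5.34 in PPT-17728 and 2.90 in PPT-5486. The upper, more mesenchymal cluster held 6 lines of 6 mice (ASC-5193, PPT-16992, PPT-3250, PPT-5320, ASC-53909 and PPT-17728), and the lower cluster held the other 17 lines. LSL-p53 R172H was listed for 1 of 6 lines of the upper cluster and for 5 of 7 listed lines of the lower cluster. Ductal markers were high in the lower cluster (list means of 8.33 to 11.37) and lower in the upper cluster (3.55 to 7.71). Krt19 and Epcam of that list are also epithelial markers of the score, so part of this difference was set by the score. Sox9 of the list went the other way, with medians of 7.775 in upper lines and 7.27 in lower lines. The mean of 10 leukocyte markers was 3.50 to 4.49 in upper lines and 3.74 to 4.55 in lower lines, and Ptprc, Adgre1, Aif1 and Itgam stayed below 3.76, the median of all values, in every line. Other markers of that list were brighter. Cd14 was at 6.19 to 7.87 in upper lines and 9.10 to 10.91 in lower lines, Fcer1g reached 8.93 in upper lines and 5.31 in lower lines, and Lyz2 reached 8.54 and 8.06 in upper and in lower lines. Their part in the results was not tested. The medians of the arrays ran from 3.58 to 3.89.

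**Figure D1:**
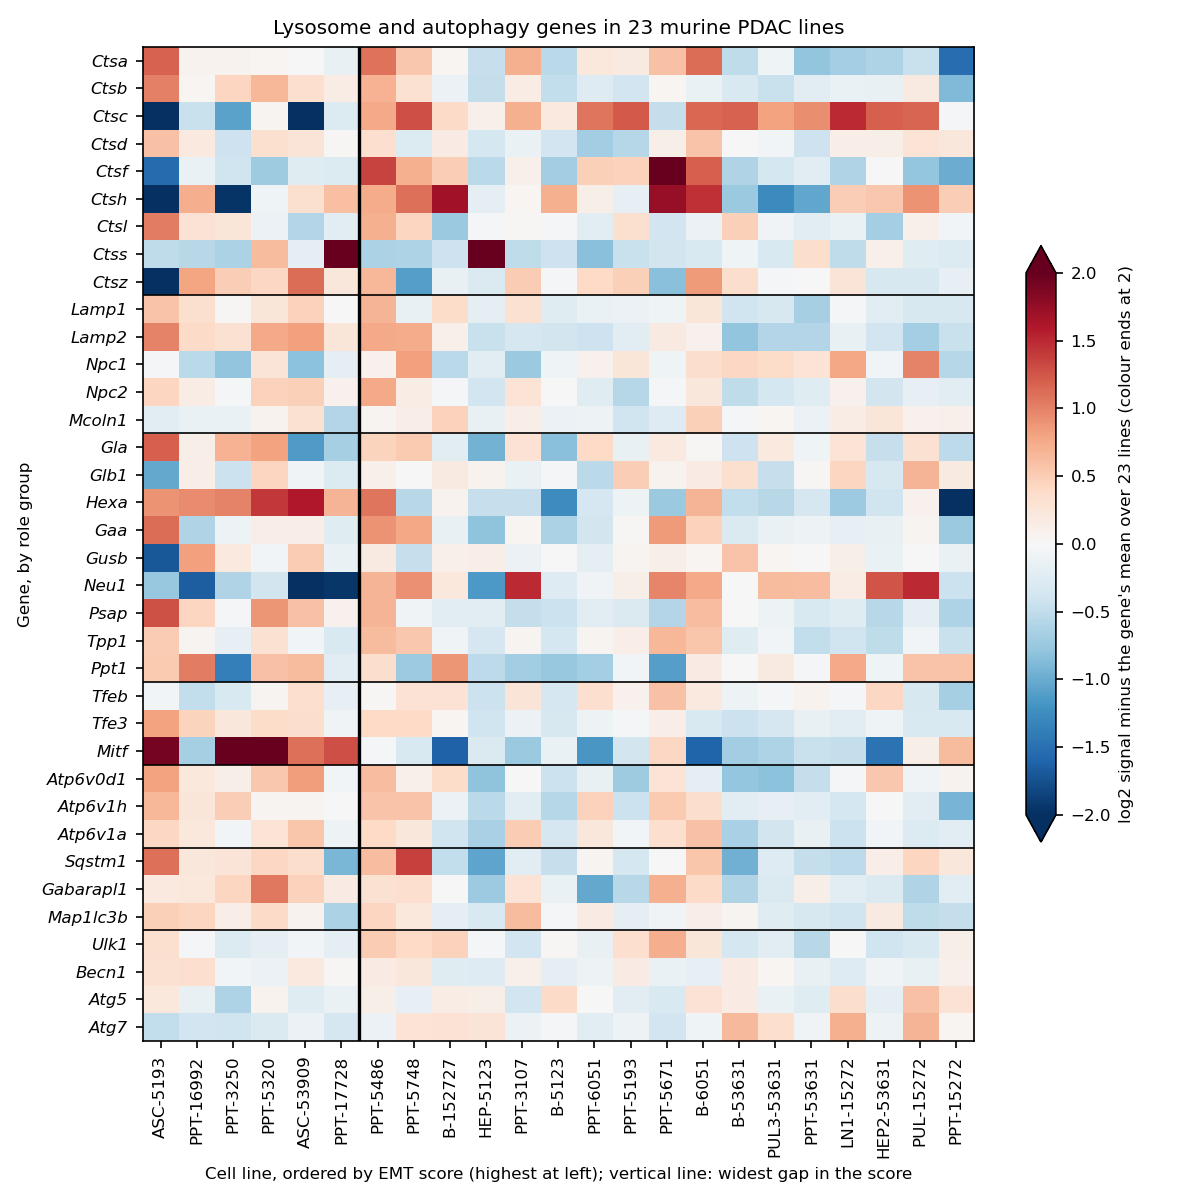
Log2 signal of the 36 genes (rows, by role group) in the 23 lines (columns, ordered by EMT score with the highest at the left), as the difference from each gene's mean over all lines. The vertical line marks the gap between the 6 upper and the 17 lower lines, and ASC-5193 at the far left holds both the highest signal of 10 genes and the lowest of 6.

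All but 1 of the 36 genes had a mean signal above the median of all values. The exception was Ctss, the cathepsin S of antigen-presenting cells. The SD over the 23 lines had a median of 0.48 over the 36 genes (range 0.184 to 1.998), against 0.39 over the 11746 genes with a mean above the median of all values. The SD was above 1 for 5 of the 36 genes, or 13.89%, against 11.97% of those 11746 genes. The steadiest was Becn1, which encodes Beclin 1 of the lipid kinase complex that starts autophagosomes, with signals of 9.26 to 9.85.

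The 4 genes with the largest SD were Ctsc, Ctsh, Mitf and Ctss, and for 3 of them the spread came from a few lines. Ctsc encodes cathepsin C, which activates granule proteases by removing dipeptides, and had 2.37 in ASC-53909 and 5.77 in ASC-5193, against 8.73 to 11.29 in the other 21 lines. Ctsh, the aminopeptidase cathepsin H, had 2.87 in ASC-5193 and 7.13 to 10.83 elsewhere. Ctss was at 6.50 in PPT-17728 and 5.40 in HEP-5123, and at most 3.19 in the other 21 lines. Of the leukocyte markers, Lyz2 (8.54 and 8.06) and Tyrobp (4.59 and 3.93) were also highest in these 2 lines, in the same order. Fcer1g was highest in ASC-53909 (8.93), and no other marker of that list had PPT-17728 and HEP-5123 as its 2 highest lines. The part of leukocyte transcripts in the Ctss signal was not tested. The low lines of Ctsc and Ctsh were thus lines that were high for other members. ASC-5193 also had the lowest Ctsz, the carboxypeptidase cathepsin Z (7.45, next lowest 9.64), and the lowest Gusb, beta-glucuronidase (7.13, next lowest 8.37).

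Lines differed in how many members they had at the top. These counts were made for the 36 genes only, without the same counts over all genes. They therefore do not show whether a line was extreme for these genes in particular. ASC-5193 was among the 3 highest lines for 16 of 36 genes and among the 3 lowest for 7. It held the highest Ctsb (11.56), Ctsl (13.40), Psap (11.45), Gla (8.91) and Tfe3 (8.69). PPT-5486, which has the highest EMT score of the lower cluster, was among the 3 highest for 17 genes, among the 3 lowest for 1 and above the median of the lines for 33. At the other end, HEP-5123 was among the 3 lowest for 12 genes and PPT-15272 for 11. PPT-15272, with the lowest EMT score of all lines, held the lowest signal of 6 genes, among them Hexa (6.97), Ctsa (7.30) and Ctsb (9.68).

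ASC-5193 and PPT-5193 came from the same mouse and lay in different EMT clusters. They differed by more than 1 on the log2 scale for 16 of 36 genes. Ctsh differed by -6.05 (ASC-5193 minus PPT-5193), with 2.87 in ASC-5193 and 8.92 in PPT-5193. Mitf differed by 2.29, with 6.19 in ASC-5193 and 3.90 in PPT-5193. In the other 6 pairs of a metastasis and a primary tumour line of the same mouse, 0 to 6 genes differed by over 1. PUL3-53631 and B-53631 differed from PPT-53631 by that much for none. The same count was not made over all genes, so it does not show a trait particular to the 36 genes.

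Of the 4 measures tested, the EMT score was the one with called members among the 36 genes. The slope on the score, per 1 SD, was fitted by limma over 45037 probe sets with the mouse as a random block, and a gene is called here where its p-value adjusted by Benjamini-Hochberg over all probe sets was under 0.05. Of the 36 genes, 10 were called, 8 with higher and 2 with lower signal at higher scores. With the mouse as a fixed block 5 were called, Psap higher and Ctsc, Ctsf, Ctsh and Ctsz lower, against 1016 of 45037 probe sets. Without ASC-5193, 7 were called, against 3943 of 45037 probe sets. In the main fit 5.99% of all probe sets were called higher and 5.38% lower. Over the 11746 brighter genes, 1 probe set each, the shares were 10.5% and 9.28%. In all, 23 of 36 slopes were positive, with a median of 0.13 against -0.003 over all probe sets. The rest of this account gives values in the upper and then the lower cluster as the lowest, the median and the highest line. Of the 10 called genes 7 had further probe sets, 16 in all, of which 14 had the same sign and 11 were called too. Among the genes not called, Gla, Mcoln1 and Gabarapl1 had further, dimmer probe sets that were called, with the sign of the gene's slope. Cluster values describe where lines lie, and the test is the slope over all 23 lines.

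Of the 5 proteins of the lysosomal membrane and of lipid export, 3 were called higher in lines of higher score and none lower. Lamp2, a glycoprotein of the lysosomal membrane needed for fusion with autophagosomes and for chaperone-mediated autophagy, had 10.60, 10.93 and 11.34 in upper lines, against 9.57, 9.98 and 11.11 in lower lines. All 6 upper lines were above the median of the lower cluster, and 2 were above its highest line, PPT-5486. The slope was 0.42 (SE 0.07, adjusted p = 0.000585 by limma), and the 3 other probe sets of Lamp2 had the same sign and were called. Lamp1, the other abundant membrane glycoprotein, had 11.37, 11.67 and 11.95 in upper lines, against 10.72, 11.23 and 12.06 in lower lines, where PPT-5486 was above all upper lines. Its slope was 0.21 (SE 0.06, limma adjusted p = 0.0238), and the call was lost without ASC-5193 (adjusted p = 0.0853) or without ASC-53909 (0.0514).

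Npc2 encodes the soluble protein that hands cholesterol to NPC1 in the lumen. It had 11.31, 11.62 and 11.80 in upper lines, against 10.76, 11.17 and 12.09 in lower lines. The ranges overlapped, with PPT-5486 again highest of all, and the slope was 0.21 (SE 0.06, limma adjusted p = 0.0311). The adjusted p was 0.0623 to 0.0983 without any 1 of PPT-5193, ASC-5193, PPT-5320 and ASC-53909. Npc1, the membrane transporter that takes the cholesterol over, was not called (slope -0.18, SE 0.11, limma adjusted p = 0.335), and neither was Mcoln1, the calcium channel of the lysosomal membrane (slope -0.06).

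Among the hydrolases the direction was split. Hexa, the alpha subunit of the beta-hexosaminidase that degrades GM2 ganglioside, had 9.66, 9.96 and 10.59 in upper lines, against 6.97, 8.53 and 10.06 in lower lines. Apart from PPT-5486, which had 10.06, and B-6051, which was level with the lowest upper line at 9.66, all lower lines were below the upper lines. The slope of 0.72 (SE 0.12) had the smallest adjusted p of the 36 genes, 0.000469 by limma. Psap, the precursor of the saposins that present lipids to hydrolases, had 10.13, 10.68 and 11.45 in upper lines, against 9.56, 9.94 and 10.85 in lower lines (slope 0.40, SE 0.08, limma adjusted p = 0.00191).

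Neu1 went the other way. This sialidase, which works in a complex with cathepsin A, had 4.44, 5.29 and 6.12 in upper lines, against 5.34, 7.11 and 7.99 in lower lines. No upper line reached the median of the lower cluster, and 3 upper lines were below its lowest line, HEP-5123. The slope was -0.70 (SE 0.17, limma adjusted p = 0.0085), with the same sign and a call for both other probe sets. Its partner Ctsa was not called (slope 0.26, SE 0.13). The other 6 members of the group, Gla, Glb1, Gaa, Gusb, Tpp1 and Ppt1, had slopes of -0.17 to 0.17 and were not called.

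Of the 9 cathepsins, 1 was called higher and 1 lower. Ctsb, the abundant cysteine protease cathepsin B, had 10.60, 10.94 and 11.56 in upper lines, against 9.68, 10.41 and 11.26 in lower lines, and all upper lines were above the median of the lower cluster. Its slope was 0.33 (SE 0.07, limma adjusted p = 0.00356). Ctsc had 2.37, 9.04 and 9.84 in upper lines, against 9.32, 10.72 and 11.29 in lower lines. All 6 upper lines lay below the median of the lower cluster and 3 below its lowest line, with a slope of -1.28 (SE 0.35, limma adjusted p = 0.0174). Without ASC-5193 the slope of Ctsc was -1.05 (adjusted p = 0.0850), and the call was lost. Without ASC-53909, the line with the lowest Ctsc, it was -0.87.

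The transcription factors of the family did not move alike. Tfe3 had 7.81, 8.25 and 8.69 in upper lines, against 7.46, 7.74 and 8.29 in lower lines (slope 0.25, SE 0.05, limma adjusted p = 0.00187). All upper lines were above the median of the lower cluster, and 2 were above its highest lines, PPT-5486 and PPT-5748. Mitf, best known from melanocytes, had 3.61, 5.88 and 7.15 in upper lines, against 2.65, 3.82 and 4.90 in lower lines (slope 0.80, SE 0.20, limma adjusted p = 0.0103). In 5 of 6 upper lines Mitf was above every lower line, and in PPT-16992 it was 3.61, under the median of all values (3.76). Several lower lines were under that median too. The other Mitf probe set, with a mean of 2.26, was not called (slope 0.07, SE 0.05, limma adjusted p = 0.447). Tfeb had 5.10, 5.49 and 5.93 in upper lines, against 4.93, 5.67 and 6.18 in lower lines, with overlapping ranges and a slope of -0.04 (SE 0.07, limma adjusted p = 0.764). The difference between the slopes of these factors was not tested.

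None of the 3 V-ATPase subunits, the 3 receptors and ATG8 proteins or the 4 initiation and conjugation genes was called. The V-ATPase slopes were all positive, 0.13 to 0.25, and all 6 upper lines had Atp6v0d1, Atp6v1h and Atp6v1a above the medians of the lower cluster. A second probe set of Atp6v1a, nearly as bright (mean 8.58 against 8.80), had a slope of -0.04 (SE 0.13). Gabarapl1, an ATG8 protein of autophagosome membranes, had a slope of 0.26 (SE 0.10, limma adjusted p = 0.086). Its other, dimmer probe set was called (slope 0.35, SE 0.11, limma adjusted p = 0.0356). Map1lc3b and Sqstm1, which encode LC3B and the cargo receptor p62, had slopes of 0.14 and 0.17. Atg7, the enzyme that activates ATG8 and ATG12 for conjugation, had a slope of -0.18 (SE 0.07, limma adjusted p = 0.098), and Ulk1, Becn1 and Atg5 had slopes of -0.08 to 0.07.

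**Figure D2:**
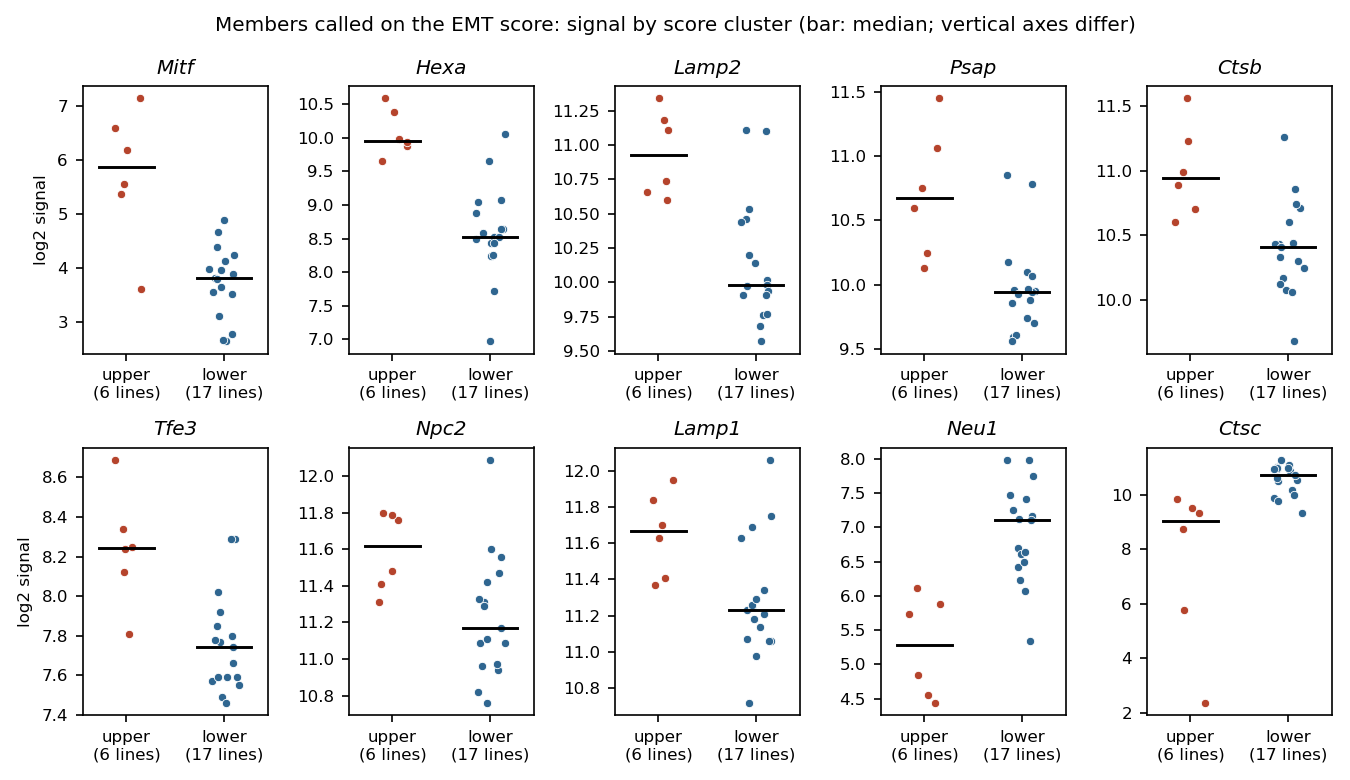
Log2 signal of the 10 genes called on the EMT score, by score cluster (6 upper lines at the left of each panel, 17 lower lines at the right), with 1 point a line and a bar at the median. The vertical axes differ between panels. Hexa, Lamp2, Psap and Tfe3 each had 2 upper lines above all lower lines, while 3 upper lines of Neu1 and of Ctsc lay below all lower lines.

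Because the scores have a gap, the slope was also fitted within each cluster, on the same scale. Within the 17 lower lines none of the 36 genes was called by limma, against 0.0555% of all probe sets, and 10 had an unadjusted p under 0.05, against 8.70% of all probe sets. Of the 10 genes called over all lines, 8 kept their sign there. Lamp2 (0.54, SE 0.18), Ctsb (0.41, SE 0.17), Lamp1 (0.35, SE 0.14), Tfe3 (0.27, SE 0.11), Hexa (0.71, SE 0.31) and Psap (0.38, SE 0.17) had slopes close to or above those over all lines. PPT-5486, with the highest score of the cluster, had the highest signal of each of these in it, for Tfe3 level with PPT-5748. PPT-15272, with the lowest score, had the lowest Ctsb, Hexa and Psap. The slopes within the cluster were not fitted without these lines. The slope of Ctsa was 0.89 (SE 0.26) within the lower lines. Mitf (-0.18, SE 0.32) and Ctsc (0.05, SE 0.28) did not keep their sign, and Neu1 was at -0.12 (SE 0.37). Within the 6 upper lines, whose scores span only 5.34 to 6.30, none was called by limma, against 0.0533% of all probe sets, and 10 had an unadjusted p under 0.05, against 13.2%. There 7 of the 10 called genes kept their sign.

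**Figure D3:**
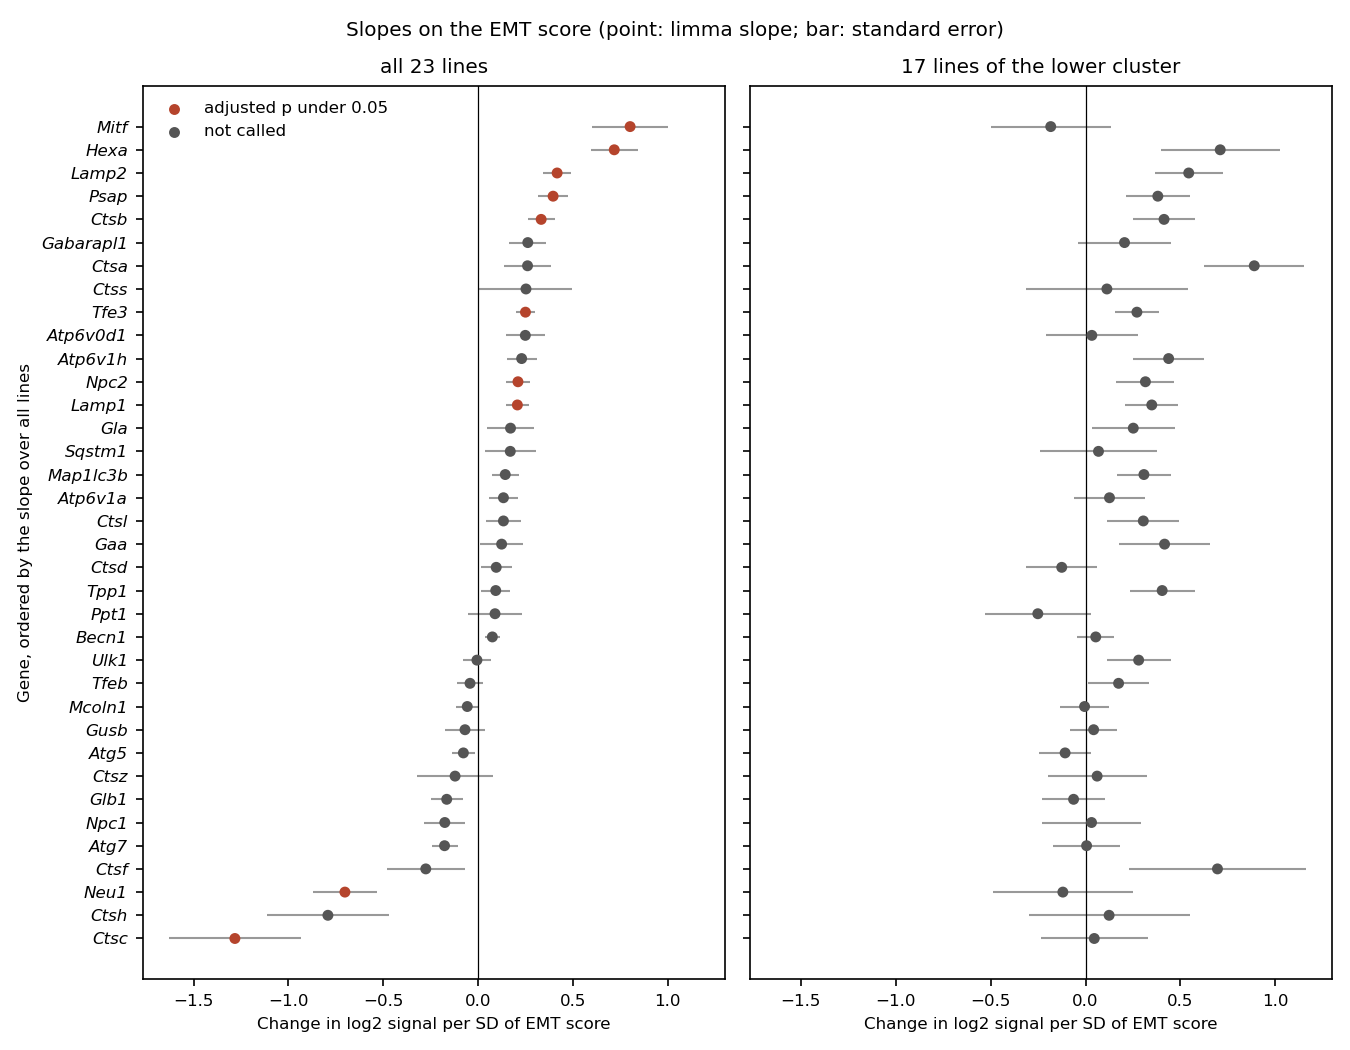
Slope of log2 signal per SD of the EMT score for the 36 genes (rows, ordered by the slope over all lines), with standard errors, over all 23 lines (left) and within the 17 lower lines (right), on 1 horizontal scale. The slopes of Lamp2, Ctsb, Hexa, Psap and Tfe3 were of similar size in both panels, with larger standard errors and no call on the right. Those of Mitf, Ctsc and Neu1 lay near 0 on the right.

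Other measured genes of the same compartments, taken from lists, gave counts to be read against the 10.5% of brighter genes called higher and the 9.28% called lower. Of 31 further lysosomal hydrolases and transporters, 5 were called higher and 2 lower on the EMT score by limma. Those that were higher were Ostm1, a subunit of the lysosomal chloride transporter (slope 0.55), Arsb, an arylsulfatase (0.48), Grn, progranulin (0.44), Dnase2a, an acid nuclease (0.38), and Smpd1, acid sphingomyelinase (0.33). Ctse, an aspartic protease of gastric and pancreatic lesions (-2.44), and Gm2a, the activator that works with Hexa on GM2 (-0.61), were lower. Of 14 further V-ATPase subunits 3 were called higher, with the smallest p for Atp6ap1 (0.36), and 2 lower, Atp6v0a1 (-0.44) and Atp6v1f (-0.27). Of 29 further autophagy genes 4 were called higher, among them Map1lc3a (0.56), Ulk2 (0.35) and Uvrag (0.26), and 1 lower, Atg2a (-0.27).

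In a list of 23 genes of the mTORC1 and Rag machinery that controls MiT/TFE factors, with target genes of the factors, 8 were called higher and 1 lower. Lamtor1, the Ragulator subunit that anchors the complex to the lysosome, had a slope of 0.21 (SE 0.04, limma adjusted p = 0.00053). Lamtor4, Lamtor5, Rraga, Rragc, Fnip1 and Tsc2 had slopes of 0.18 to 0.31 and were called too. Gpnmb, a lysosomal glycoprotein and target of MITF, had a slope of 1.04 (SE 0.23), and Ppargc1a, a coactivator, was lower with -0.93 (SE 0.26). Fibroblast and stellate markers moved with the score as well, with 7 of 10 called higher and none lower by limma, a median slope of 1.496, and list means of 6.35 to 9.46 in upper lines against 3.29 to 9.32 in lower lines. None of the 10 was below the median of all values in every line, and their part in the slopes of the lysosomal genes was not tested. Of the leukocyte markers, Cd14 was called lower and no other passed.

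Correlations between the members were mostly weak and positive. Over the 23 lines the median correlation of the 630 pairs was 0.15, and 21.43% of pairs had r above 0.5, against a median of 0.02 and 5.91% over all pairs of the 11746 brighter genes. Within the 17 lower lines the median was 0.22, against 0.02. These are descriptions, since lines of the same mouse are not independent and all values of a line share 1 array. The V-ATPase subunits had the highest median among the role groups, 0.63 over 3 pairs, and the cathepsins had -0.02 over 36 pairs.

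Of the MiT/TFE factors, Tfe3 had the highest correlations with the other members. Its correlation with the 33 genes outside the family had a median of 0.53 over 23 lines, and 17 of the 33 (51.52%) had r above 0.5, against 13.01% of 11745 brighter genes. Within the 17 lower lines the median was 0.44 and 15 of 33 were above 0.5 (45.45%, against 11.68%). For Tfeb the median was 0.18 over all lines and 0.26 in the lower lines, with Ctsf (0.63) and Gaa (0.55) above 0.5 over all lines. For Mitf the median was 0.18 over all lines and -0.02 in the lower lines, several of which had Mitf under the median of all values.

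The member most like Tfe3 was Lamp2, with r = 0.90 and Spearman's rho = 0.89 over 23 lines. Over the means of 15 mice r was 0.92, and without the 2 lines with the most extreme Tfe3, PPT-16992 and ASC-5193, it was 0.90. Within the lower cluster r was 0.87, and 0.65 without PPT-5486 and PPT-5748, so part of the relation there rests on these 2 lines. Ctsb followed with r = 0.82 over 23 lines, 0.72 in the lower cluster and 0.43 there without the same 2 lines. Atg7 had the lowest value over 23 lines, r = -0.59. Its r was -0.38 in the lower cluster and -0.46 over the means of 15 mice. No p-value is given for these relations.

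To see which of the members carry the letters that MiT/TFE factors bind, RefSeq windows of 300 bases around the start of transcription (250 before and 50 after, GRCm38.p6) were searched for CACGTG and for TCACGTGA, the inner letters of the CLEAR element, which contains the shorter motif. Both read the same on either strand. Of the 36 genes 31 had a window. CACGTG was present for 13 of the 31, or 41.9%, against 8.09% of 27025 genes and 7.15% of 32851 windows. TCACGTGA was present for 6, Ctsa, Ctsd, Mcoln1, Gla, Atp6v0d1 and Atp6v1a, or 19.4%, against 1.12% of genes and 0.97% of windows. Of the 9 called genes with a window 1, Lamp1, held CACGTG, as did 12 of the 22 that were not called. The median slope on the EMT score was 0.12 for the 13 genes with CACGTG and 0.16 for the 18 without. The genes were listed as a programme driven by factors that bind this motif, so their shares are not independent of that choice. A match is a description of letters, and its absence says only that they do not occur in this window.

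The windows of 5 members described here are shown from 250 bases before the start to 10 bases after it, 5′ to 3′ along the gene, with TCACGTGA or CACGTG in capitals. They are those of Ctsd (chr7:142387818-142388077, minus strand), Mcoln1 (chr8:3500269-3500528, plus strand), Atp6v0d1 (chr8:105566055-105566314, minus strand), Lamp1 (chr8:13158911-13159170, plus strand) and Atg5 (chr10:44268089-44268348, plus strand). Ctsd and Mcoln1 each hold TCACGTGA and a further CACGTG, Atp6v0d1 holds TCACGTGA across the start site, Lamp1 holds 4 copies of CACGTG, and Atg5 holds 1.
Ctsd: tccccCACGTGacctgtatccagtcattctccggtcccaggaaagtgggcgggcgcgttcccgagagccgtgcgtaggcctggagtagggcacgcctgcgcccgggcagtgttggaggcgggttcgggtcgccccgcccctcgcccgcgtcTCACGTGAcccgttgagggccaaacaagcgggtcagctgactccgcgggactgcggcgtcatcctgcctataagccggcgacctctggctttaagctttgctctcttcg
Mcoln1: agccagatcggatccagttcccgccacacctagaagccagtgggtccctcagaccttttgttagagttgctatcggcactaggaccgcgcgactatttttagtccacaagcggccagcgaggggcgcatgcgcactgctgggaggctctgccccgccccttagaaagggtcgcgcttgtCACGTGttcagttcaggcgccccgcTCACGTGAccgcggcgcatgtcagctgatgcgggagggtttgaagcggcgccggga
Atp6v0d1: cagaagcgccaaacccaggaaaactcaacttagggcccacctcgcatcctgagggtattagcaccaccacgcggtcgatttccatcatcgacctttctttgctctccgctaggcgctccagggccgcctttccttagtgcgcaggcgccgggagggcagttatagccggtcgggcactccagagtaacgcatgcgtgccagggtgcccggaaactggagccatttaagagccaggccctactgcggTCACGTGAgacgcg
Lamp1: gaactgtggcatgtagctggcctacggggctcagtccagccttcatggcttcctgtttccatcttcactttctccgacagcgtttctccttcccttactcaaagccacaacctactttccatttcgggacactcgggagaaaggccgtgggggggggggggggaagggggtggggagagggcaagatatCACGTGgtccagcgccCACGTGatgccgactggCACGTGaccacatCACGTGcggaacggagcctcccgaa
Atg5: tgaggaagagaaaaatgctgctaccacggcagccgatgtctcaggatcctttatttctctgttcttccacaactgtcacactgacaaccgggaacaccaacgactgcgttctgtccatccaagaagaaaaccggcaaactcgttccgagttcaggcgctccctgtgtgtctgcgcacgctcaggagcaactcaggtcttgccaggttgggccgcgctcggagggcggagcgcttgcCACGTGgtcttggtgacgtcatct

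Between lines of metastases and of primary tumours no probe set was called by limma (0% of 45037, with 4.07% at an unadjusted p under 0.05), and trended and robust eBayes also called 0. Of the 36 genes 4 had an unadjusted p under 0.05, all higher in metastasis lines, with adjusted p = 0.999. The median difference of the 36 genes (metastasis minus primary tumour) was -0.04, against 0.003 over all probe sets, and 16 of 36 were positive. Within mice the direction was the other one. In each of the 7 pairs of a metastasis line and a primary tumour line of the same mouse, from 4 mice, the median difference of the 36 genes was positive, from 0.02 to 0.615, with 19 to 28 genes higher in the metastasis line (52.8% to 77.8%). Over the 11746 brighter genes the medians of the same pairs ran from -0.07 to 0.07, with 40.8% to 56.5% of genes higher. For B-53631 the median of the 36 genes was below that of the brighter genes (0.06 against 0.07, with 52.8% against 56.5% higher). For PUL3-53631 it was close to it (0.02 against 0.0, with 52.8% against 49.4% higher), and in the other pairs it was above. The pairs of 1 mouse share a primary tumour line and are not independent, and no test was made of the median. Atg5, the protein joined to ATG12 in the conjugation machinery, had 7.26, 7.68 and 8.09 in the 11 metastasis lines (lowest, median and highest), against 6.89, 7.36 and 7.80 in the 12 primary tumour lines. The ranges overlapped over most of their width, and the difference was 0.29 (SE 0.09, unadjusted p = 0.00536 by limma).

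The other 3 were close to it in size. Atg7 had 6.27, 7.02 and 7.47 in metastasis lines, against 6.37, 6.59 and 7.04 in primary tumour lines (difference 0.33, SE 0.12). Its lowest line, ASC-5193, was a metastasis line of the upper EMT cluster. Ctsd, the aspartic protease cathepsin D, had 9.69, 10.21 and 10.67 in metastasis lines, against 9.38, 10.03 and 10.41 in primary tumour lines (difference 0.31, SE 0.14, and 0.63 with the mouse as a fixed block). Mcoln1 had 7.24, 7.53 and 7.93 in metastasis lines, against 6.86, 7.34 and 7.59 in primary tumour lines (difference 0.23, SE 0.09). Each of the 4 genes holds CACGTG in its window, as do 13 of the 31 members with a window and 8.09% of 27025 genes. The 4 genes were picked by unadjusted p, and a link between motif and site was not tested. Tfeb, Tfe3 and Mitf differed by 0.02, -0.13 and -0.51, less than the spread between lines of a group.

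The slopes on drug sensitivity were fitted per doubling of the IC50, the dose at the midpoint of the loss of viability, over the 22 lines that the study's table of IC50 values lists by name. The IC50 values are the study's own and are used here only as the measure on the horizontal axis. For Bez235 no probe set was called by limma (0% of 45037, with 5.68% at an unadjusted p under 0.05), nor by trended and robust eBayes. Of the 36 genes 7 had an unadjusted p under 0.05, 4 with higher and 3 with lower signal in lines of higher IC50. In all 25 of 36 slopes were positive, with a median of 0.10 against 0.002 over all probe sets. The smallest adjusted p among the 36 was 0.805.

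Among the genes with the smallest p for Bez235, Ctsd had signals of 9.38 to 10.67 and a slope of 0.28 (SE 0.09, unadjusted p = 0.00535 by limma), which stayed between 0.21 and 0.31 when any 1 line was left out. Ulk1, the kinase that starts autophagy and is inhibited by mTORC1, had signals of 6.10 to 7.38 and a slope of 0.20 (SE 0.08, unadjusted p = 0.0137 by limma). The other Ulk1 probe set, with a mean of 4.45, had a slope of 0.04 (SE 0.06). Ctsz had a slope of -0.67 (SE 0.22, unadjusted p = 0.00541 by limma), but -0.18 without ASC-5193, the line with its lowest signal. Ctsc had a slope of -1.34 (SE 0.48, unadjusted p = 0.0101 by limma), and -0.92 without ASC-53909. The cathepsins thus ran in both directions, and the negative slopes of Ctsc and Ctsz rested in part on ASC-53909 and ASC-5193, the lines in which they were lowest. Sqstm1 (0.38, SE 0.15), Lamp2 (0.27, SE 0.13) and Gusb (-0.27, SE 0.12) were the others with an unadjusted p under 0.05 by limma. The other Gusb probe set, with a mean of 6.34, had a slope of -0.01 (SE 0.11). All further probe sets of Ctsc, Ctsz, Sqstm1 and Lamp2 had the sign of the gene's slope.

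For Rad001 no probe set was called either (0% of 45037 by limma, with 7.18% at an unadjusted p under 0.05, and 0 by trended and robust eBayes). Of the 36 genes 4 had an unadjusted p under 0.05, 2 higher and 2 lower, and 21 slopes were positive with a median of 0.03. Atp6v0d1, the d subunit of the membrane sector of the proton pump, had signals of 8.6 to 10.26 and a slope of 0.35 (SE 0.08, unadjusted p = 0.000431 and adjusted p = 0.451 by limma). It stayed between 0.30 and 0.39 when any 1 line was left out. Sqstm1 had signals of 8.66 to 11.09 and a slope of 0.27 (SE 0.12). Ctsc (-0.99, SE 0.37) and Ctsz (-0.40, SE 0.18) were lower at higher IC50, and without ASC-5193 the slope of Ctsz was -0.08. Without ASC-53909 the slope of Ctsc was -0.52.

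The MiT/TFE factors had no call for either drug. Per doubling of the Bez235 IC50 the slopes were 0.12 (SE 0.09) for Tfe3, 0.42 (SE 0.30) for Mitf and -0.07 (SE 0.09) for Tfeb. Per doubling of the Rad001 IC50 they were 0.13 (SE 0.06), 0.03 (SE 0.24) and 0.05 (SE 0.07) in the same order. The slopes for the drugs share the same arrays and are not independent of each other. The EMT score correlated with the Bez235 values with r = 0.17 and with the Rad001 values with r = 0.01. Among the further lists, 13 of 14 other V-ATPase subunits had positive slopes for Bez235, against 50.8% of all probe sets. An unadjusted p under 0.05 by limma was found for 6 of the 14, against 5.68% of all probe sets. The smallest p were those of Tcirg1 (slope 0.28), Atp6v0e (0.27) and Atp6v0a2 (0.22), each with adjusted p = 0.805 by limma. Slopes for Bez235 were positive for 19 of 31 hydrolases and transporters, 22 of 29 autophagy genes and 20 of 23 mTORC1 and Rag genes. In these lists 3, 0 and 2 genes had an unadjusted p under 0.05 by limma.

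**Figure D4:**
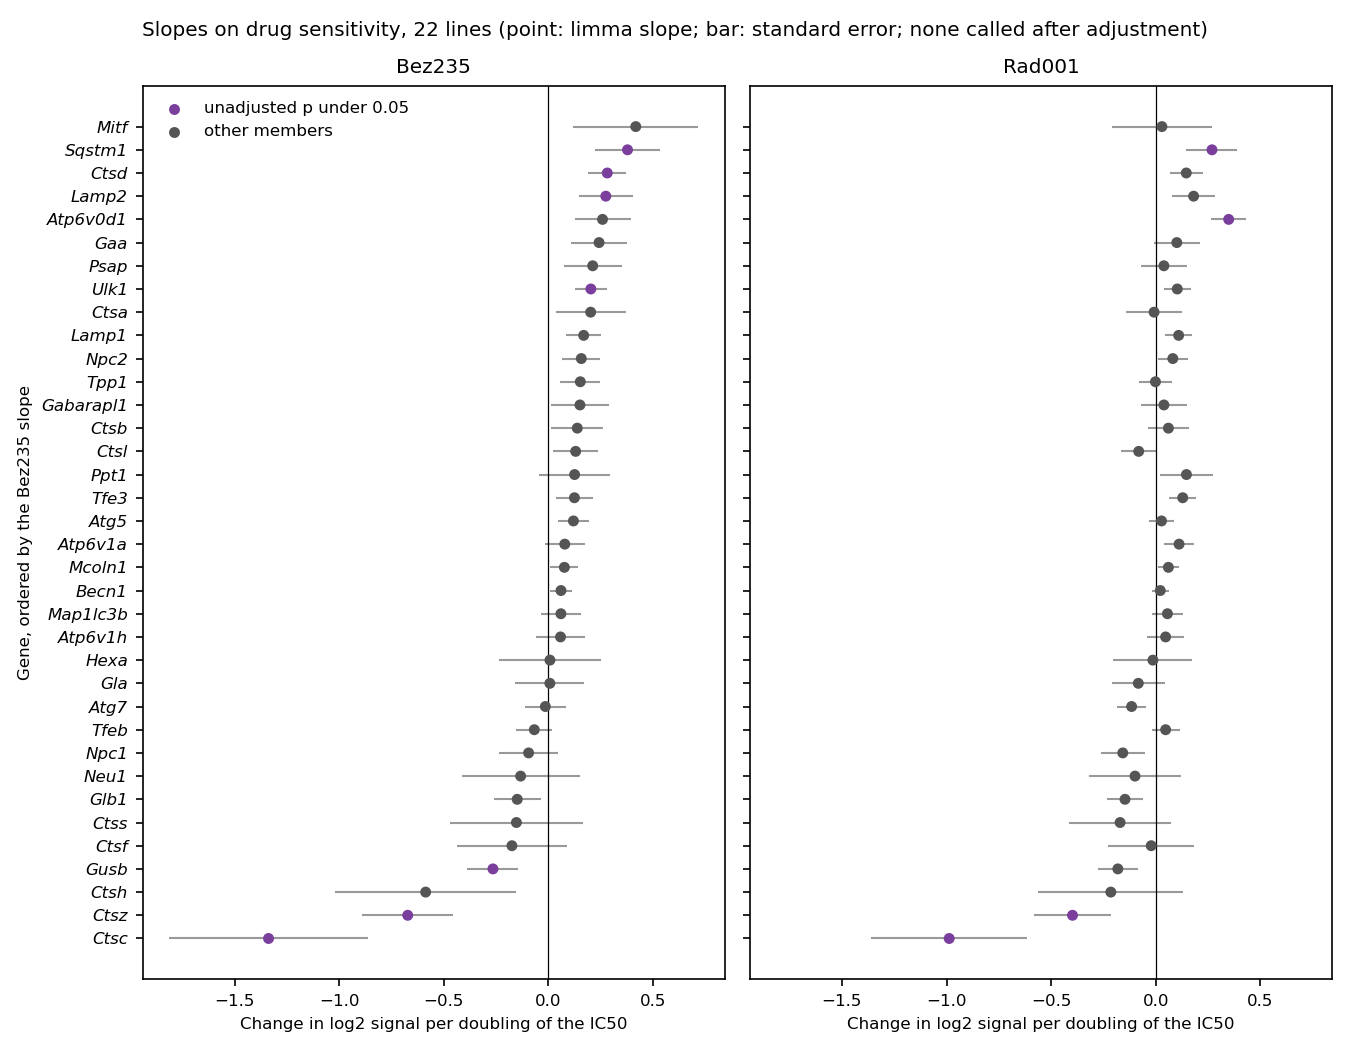
Slope of log2 signal per doubling of the IC50 for the 36 genes (rows, ordered by the Bez235 slope), with standard errors, for Bez235 (left) and Rad001 (right) over 22 lines, on 1 horizontal scale. Purple points have an unadjusted p under 0.05, and none was called after adjustment. Ctsc and Ctsz were lowest and Sqstm1 was positive for both drugs.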

How the data were processed

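RNA of 23 lines was hybridised to Affymetrix mouse genome arrays. Deposited values are log2 signals, 1 for each probe set, that the authors made by background correction, normalization and summarisation. The study's methods name VSN and the submitters' processing notes name RMA, with versions not given in the sources used here, so fold sizes of dim genes may be compressed or stretched. The deposited log2 values were used unchanged. Of 45101 probe sets 64 controls were left out. Symbols came from the platform annotation (34945 probe sets with 1 symbol, 932 with several, 9160 with none). Arrays carry no counts, so the number of lines limits the precision.

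Site, EMT score and log2 IC50 were fitted with limma 3.58.1 in R 4.3.3 (lmFit, eBayes, mouse as a random block, block correlations 0.26 to 0.33), tested on simulated data. Fits used 23 lines, or 22 for IC50, since B-152727 matched no listed name. Prefixes other than PPT were taken as metastases. Alternatives changed the block, scaling, filter, probe sets, score and covariates, left out each line, and reused the block correlation of the same comparison. No pair of arrays was identical. Part of the listed genotypes is not reported here. Values for each gene were described with Python 3.11.15 and drawn with matplotlib 3.10.9. Members and lists were chosen with earlier results of these data known. Named members are those called in any fit, the 4 with the smallest p in each, the MiT/TFE factors and the 4 with the largest SD, and up to 3 genes of each further list per fit. Other list genes were named after their values were seen, because they were called.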

Additional observations from a re-analysis of the deposited data

How the results depend on the processing

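Site, Bez235 and Rad001 gave 0 called members in every one of 9, 11 and 11 alternatives and without each line in turn. Over all probe sets tested, Rad001 called 15 with mouse as a fixed block, 13 with the EMT score as a covariate and 6 without ASC-53909. Bez235 called 1 without PUL-15272, and the other fits of these comparisons called 0. Of the 13 alternatives for the EMT score, 10 called a count within 1.5 times the 10 members of the main setting. With mouse as a fixed block 5 were called, 1 higher (Psap) and 4 lower (Ctsc, Ctsf, Ctsh and Ctsz), against 1016 of 45037 probe sets. In that fit only mice with several lines contribute, and only the mouse of ASC-5193 and PPT-5193 has lines in both clusters. Within the 6 upper lines and within the 17 lower lines 0 were called, 0 higher and 0 lower, with fewer lines and a narrower score. Of the 10 genes called over all lines, Hexa (-0.88), Neu1 (1.89) and Mitf (-0.10) changed sign within the upper lines. Within the lower lines Ctsc (0.0461) and Mitf (-0.18) did. Tfeb, which was not called, had a slope of 0.17 within the lower lines, and further genes that were not called changed sign in either cluster. The cause was not tested.

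Leaving out 1 line gave 7 to 12 called members, 6 to 10 of them higher and 1 to 3 lower, with the fewest without ASC-5193. Over all 45037 probe sets these fits called 3943 to 5881, also with the fewest without ASC-5193. Lamp1 lost its call without ASC-5193 (adjusted p = 0.0853) or ASC-53909 (0.0514). Npc2 lost it without PPT-5193 (0.0638), ASC-5193 (0.0983), PPT-5320 (0.0623) or ASC-53909 (0.0649). Both also lost it after quantile normalization and with Cdh1 alone or Vim minus Cdh1 as the score. Lines were paired by mouse, through the fits with the mouse as a block, and the replicate numbers only name lines.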
